A study of Danio rerio with 6 samples.

Results

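The large subunit of the cytosolic ribosome was followed through its protein genes, taken as all listed rows whose gene name starts with rpl followed by a digit or the letter p. The rule gave 47 of 19071 listed genes. RNA had been sequenced from whole zebrafish larvae at 3 dpf (days post fertilization) in 6 libraries, 3 from p2ry11(-/-) mutants and 3 from WT siblings, each from pooled embryos. Both groups came from crosses of p2ry11 heterozygous (+/-) fish and were raised in E3 medium with methylene blue. The mutants carry a small frameshift deletion in the second exon of p2ry11, made with CRISPR/Cas9 and kept as a single founder line. P2RY11 is a receptor for extracellular ATP, and the study asked how its loss changes gene expression in the larva. No source used here ties the 3 pools of a group to separate clutches, so the p-values reflect only how far these libraries spread. In whole larvae, fewer cells of a type and less RNA per cell cannot be told apart.

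The ribosome reads messenger RNA with its small subunit and joins amino acids in its large subunit. The large subunit is built from ribosomal RNA and many proteins, most of them encoded by single genes that are read at very high levels in every growing cell. The genes for both subunits are usually regulated together, and in vertebrates their messenger RNAs start with a pyrimidine stretch (the TOP motif) through which growth signals such as mTOR set their translation. In human, mutations in several of them cause Diamond-Blackfan anemia, in which red cell formation fails.

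The levels are FPKM, fragments corrected for the length of the transcript and the size of the library, so they can be compared between genes. The mutated gene had 0.707, 0.853 and 1.02 FPKM in WT siblings 1, 2 and 3 and was listed at 0 in every mutant library. FPKM keep no read depth, so depth is unknown. The listed FPKM summed to between 426645 and 499493 per library. WT sibling 3 stood apart from the other WT siblings. Its log2 values differed from those of WT siblings 1 and 2 by a root mean square of 0.506 and 0.550 over all genes, against 0.212 between WT siblings 1 and 2 and 0.239 to 0.247 among mutants. The main counts and values that change without it are given beside the results.

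The labels of the rows held with 2 exceptions. The name rpl37 stands on 2 gene IDs. ENSDARG00000034291 had 244 to 409 FPKM in WT siblings, the level of a ribosomal protein gene. ENSDARG00000076360 had 1.93 to 3.75 FPKM in all libraries, and a separate table of gene IDs names it COA1, a cytochrome c oxidase assembly gene. It stays among the 47 by the rule and is called the second rpl37 row here. The row named rpl36a carries the name RPL36AL, its close paralog, in that table. Of the 47 rows, 43 exceeded 100 FPKM in every library, and all 47 passed the filter of a mean of 0.5 FPKM and were tested. Among the 100 genes with the highest mean FPKM, 16 were rpl genes in WT siblings and 14 in mutants.

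Rpl genes were lower in P2RY11 mutants than in WT siblings, most of them by a modest amount. Their summed FPKM took 6.46%, 6.01% and 7.62% of each WT sibling library and 5.30%, 5.76% and 5.52% of each mutant library. The groups did not overlap, and the means were 6.70% ± 0.831 and 5.53% ± 0.234 (SD, n = 3 each). WT sibling 3 was highest, and WT sibling 2 lay closest to the mutants. The difference of -1.17 percentage points was -0.71 without WT sibling 3, where the WT sibling mean was 6.24%. The median rpl gene had a log2 difference (mutant minus WT sibling mean of log2(FPKM + 1)) of -0.34, while the median over all 18432 tested genes was 0.16. In 45 rpl genes the difference was negative and in 2 positive. The split was 46 and 1 after median-of-ratios scaling, 39 and 8 after rescaling to TPM (each library scaled to 1 common sum) and 29 and 18 after quantile normalization. By limma's moderated test with Benjamini-Hochberg adjustment over all tested genes, 7 rpl genes fell and 0 rose at an adjusted p under 0.05. At an unadjusted p under 0.05 limma had 24 lower and 0 higher, and 17 and 4 after quantile normalization. An ordinary linear model called 0 in either direction after adjustment, beside 1.38% of all genes called lower and 3.39% higher. Before adjustment that model had 17 lower and 0 higher, and 3 lower and 7 higher with a library covariate added. No share of all tested genes at an unadjusted p is given here, so these unadjusted counts cannot be set against a background. The 7 genes are 14.9% of the rpl genes, beside 3.98% of all tested genes that fell and 8.23% that rose. The study's cut-offs (unadjusted p below 0.05 together with a change of more than 1.5 times) were also applied to limma's p and log2 difference. They took in 11 rpl genes, all lower (23.4%, beside 3.28% of all genes lower and 9.51% higher). These are not the study's own calls, whose p-values were not used. In 30 rpl genes (63.8%) every mutant library lay below every WT sibling library and in 0 above, beside 11.7% and 35.0% of all tested genes. After quantile normalization these numbers were 14 (29.8%) and 5, beside 19.8% and 21.0% of all genes. The number that fell was 4 with a pseudocount of 0.1 (beside 3.28% of all genes lower and 5.89% higher), 4 after median-of-ratios scaling (beside 5.7% and 3.62%) and 6 after quantile normalization (beside 7.11% and 5.32%). Each of these was among the 7. In all of these settings rplp0, rplp1, rplp2 and rpl10 passed, while rpl17 and rpl22l1 passed only after quantile normalization and rpl13 in none.

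**Figure D1:**
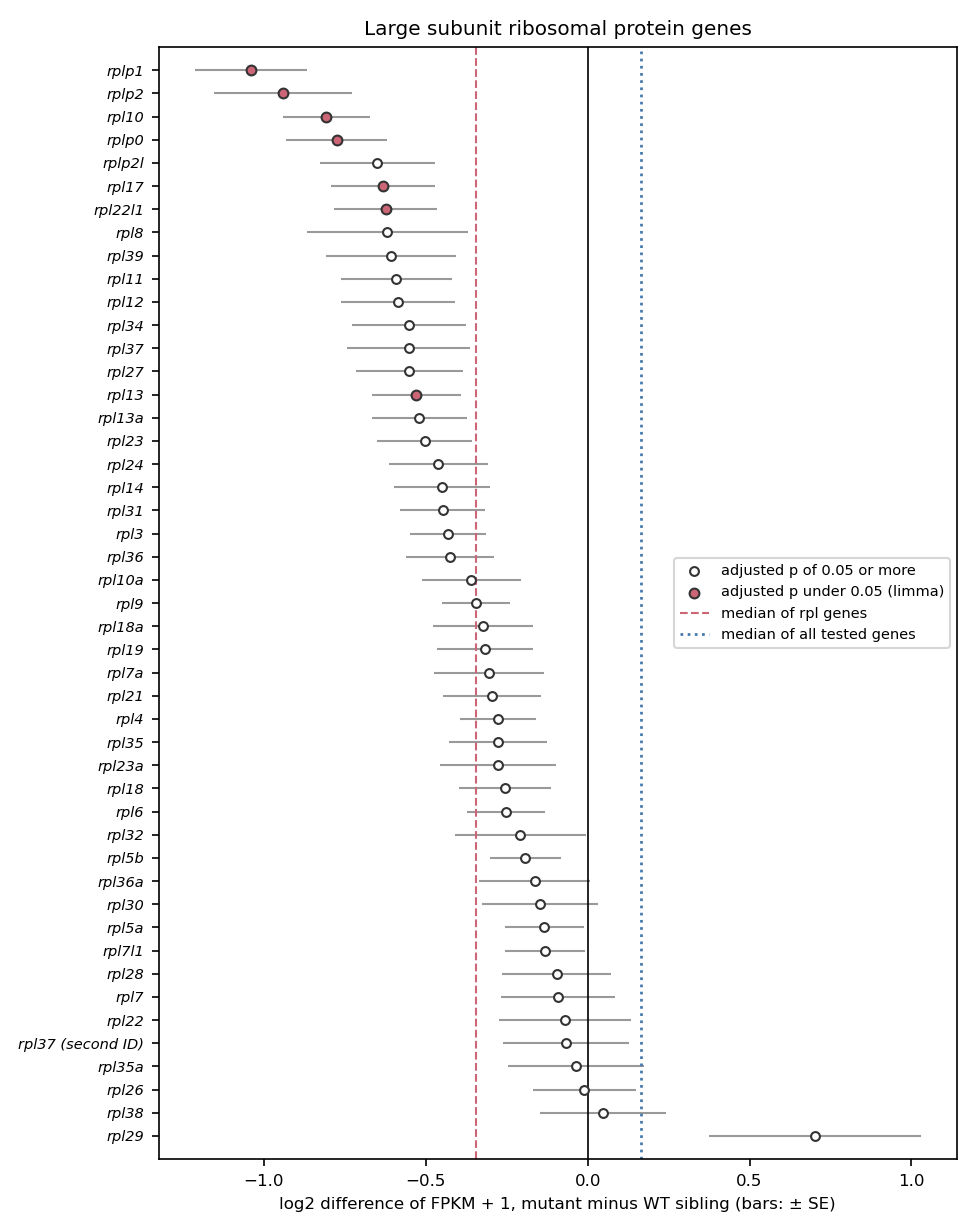
Log2 difference in FPKM + 1 (mutant minus WT sibling, x axis) of each of the 47 rpl genes (y axis, sorted), with bars of ± SE from limma and filled points for an adjusted p under 0.05. The 7 filled points lie between -1.04 and -0.53, the dashed line at -0.34 marks the rpl median and the dotted line at 0.16 that of all tested genes.

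The single libraries set how many genes passed. WT sibling 3 was the highest WT sibling in 47 of 47 rpl genes and the highest of all libraries in 46, the exception being rpl29. The median rpl gene was 1.38 times as high in it as in the mean of WT siblings 1 and 2 (range 1.09 to 1.77). Without it the spread among WT siblings shrank and 20 rpl genes fell and 1 rose, all 7 of the first set among them, beside 8.11% of all genes that fell and 20.1% that rose. The median rpl difference was then -0.20, beside 0.11 for all genes, 37 differences were negative, and the number without overlap was 30 lower and 3 higher (16.9% and 41.3% of all genes). Without WT sibling 2, 15 rpl genes fell, beside 2.93% of all genes that fell and 7.34% that rose. Without WT sibling 1 only rpl10 fell, beside 0.879% of all genes that fell and 1.17% that rose. Without mutant 1, 2 or 3 the number was 0 each time (limma, smallest adjusted p = 0.0689 to 0.0905). At the same adjusted threshold 0.711%, 0.591% and 0.412% of all genes fell and 0.825%, 0.895% and 0.635% rose. At an unadjusted p under 0.05 these fits had 15, 22 and 17 rpl genes lower and 1, 0 and 0 higher. No share of all genes is given for that threshold. The coefficient of variation of an rpl gene had a median of 20.7% among WT siblings and 7.38% among mutants.

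**Figure D2:**
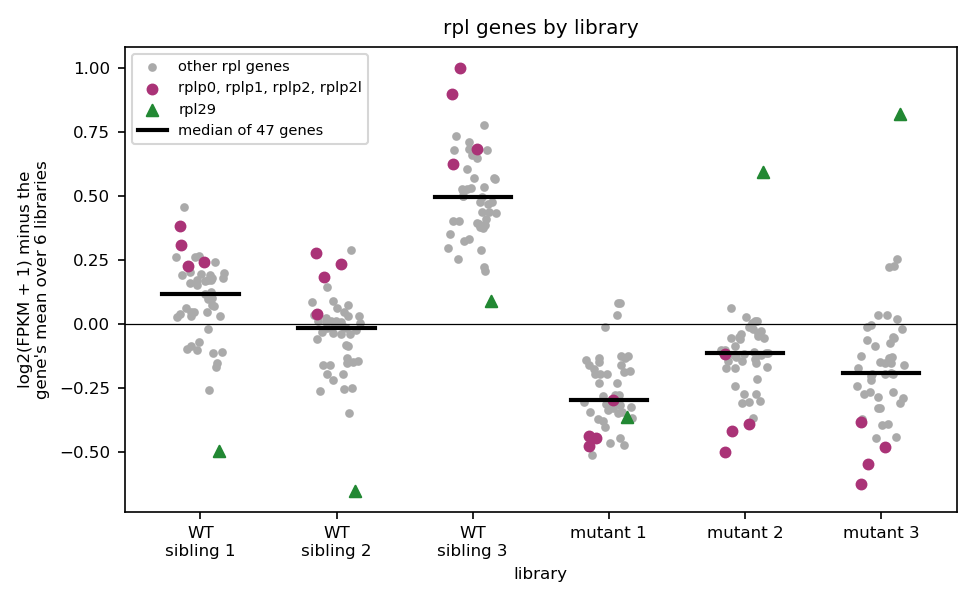
Each point is 1 rpl gene in 1 library, as log2(FPKM + 1) minus the mean of that gene over the 6 libraries (y axis), with the median of the 47 genes as a bar. WT sibling 3 sits highest, the stalk genes lie mostly high in WT siblings and low in mutants, and rpl29 lies above all other rpl genes in mutants 2 and 3.

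The most negative differences, those of rplp1 and rplp2, belonged to the stalk, the flexible arm of the large subunit that draws elongation factors to the ribosome. The gene rplp0, which encodes the base protein that holds the arm, had 1874, 1862 and 2543 FPKM in WT siblings and 1289, 1207 and 1135 in mutants. It was the most abundant rpl gene in both groups, and the groups did not overlap. It fell by 0.78 in log2 units (SE 0.157, adjusted p = 0.0262 from limma). The gene rplp1, for an acidic protein of the arm, had 986, 916 and 1410 FPKM in WT siblings and 558, 534 and 490 in mutants. Every mutant library lay well below every WT sibling library, and the mean fell by 52.2%. Its log2 difference of -1.04 (SE 0.173, adjusted p = 0.0169 from limma) was the most negative of the 47. The gene rplp2, for the partner of the rplp1 protein in the arm, had 408, 395 and 697 FPKM in WT siblings and 255, 260 and 238 in mutants. WT sibling 3 stood far above the other libraries here, but the others did not overlap either. It fell by 0.94 (SE 0.214, adjusted p = 0.0368 from limma).

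A further listed stalk gene, rplp2l, had 1455, 1207 and 1809 FPKM in WT siblings and 844, 1081 and 901 in mutants. The groups did not overlap, and the log2 difference of -0.65 (SE 0.178) narrowly missed the threshold (adjusted p = 0.0555 from limma). The rpl12 protein binds at the foot of the stalk. Its gene had 605, 509 and 766 FPKM in WT siblings and 387, 484 and 370 in mutants, with a log2 difference of -0.59 (adjusted p = 0.0687 from limma). Of these 5 genes 3 fell, beside 3.98% of all tested genes. Without WT sibling 3 all 5 did, beside 8.11% of all genes, with log2 differences from -0.85 (rplp1) to -0.43 (rpl12). By log2 difference the 5 ranked 1, 2, 4, 5 and 11 among the 47. Rank 3 was rpl10, and ranks 6 to 10 were rpl17, rpl22l1, rpl8, rpl39 and rpl11. The 4 rplp genes together made up 16.2%, 16.4% and 17.0% of the summed rpl FPKM in WT siblings and 13.0%, 12.4% and 11.5% in mutants. In this share WT sibling 3 lay near the other WT siblings, and the mean went from 16.5% ± 0.377 to 12.3% ± 0.763 (SD, n = 3 each).

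**Figure D3:**
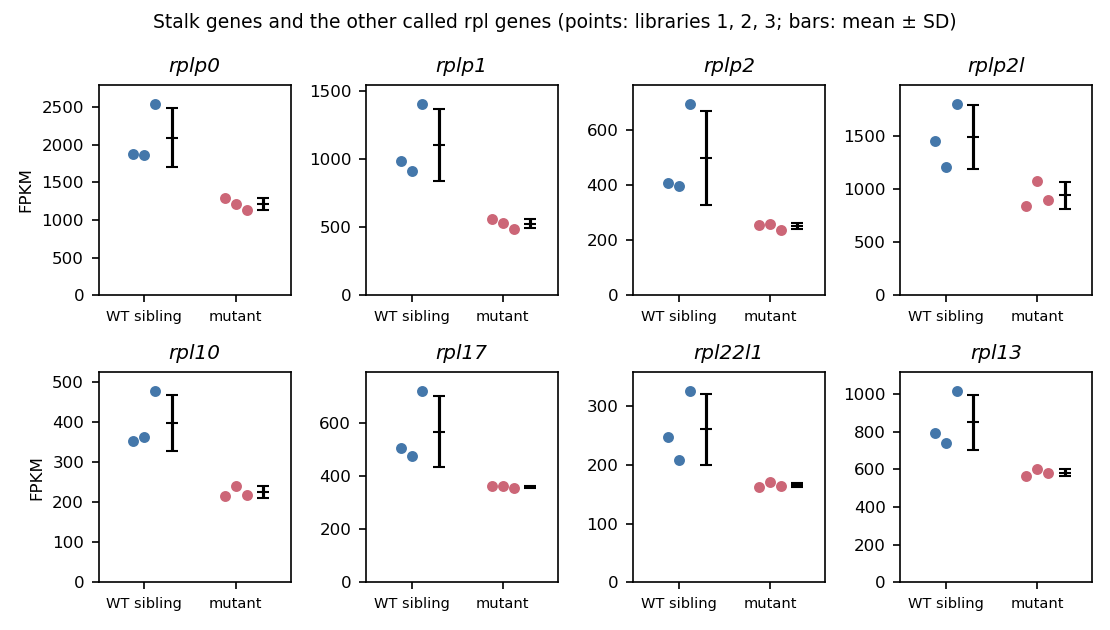
FPKM (y axes, from 0) of the 4 stalk genes in the upper row and of rpl10, rpl17, rpl22l1 and rpl13 in the lower row, with 1 point per library and the mean ± SD beside each group. In all 8 genes the 3 mutant libraries lie below the 3 WT sibling libraries, and WT sibling 3 is the highest.

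Near the catalytic centre, where peptide bonds form, rpl10 fell. Its protein joins late in the assembly of the large subunit, and in yeast its loading releases an export factor. The gene had 353, 365 and 479 FPKM in WT siblings and 215, 242 and 219 in mutants, so that no library overlapped. The mean fell by 43.4%, a log2 difference of -0.81 (SE 0.134, adjusted p = 0.0169 from limma). For rpl3, whose protein reaches toward the same centre, the values were 1383, 1225 and 1418 FPKM in WT siblings and 933, 1075 and 975 in mutants. WT sibling 3 was close to WT sibling 1 in this gene. The groups did not overlap, and the log2 difference of -0.43 (SE 0.117) gave an adjusted p of 0.0544 from limma. When WT sibling 3 was left out, the rpl3 difference was -0.39 and passed (adjusted p = 0.0141 from limma), beside 8.11% of all genes lower. The gene rpl8, for another protein of the catalytic core, had 601, 365 and 729 FPKM in WT siblings and 307, 396 and 362 in mutants. WT sibling 2 lay within the range of the mutants, and the difference of -0.62 had the second largest SE of the set (0.249, adjusted p = 0.126 from limma).

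The exit tunnel leads the new protein chain out of the large subunit. Of 8 genes for proteins of its wall or rim, 1 fell, beside 3.98% of all tested genes. In 4 the groups did not overlap, always with the mutants lower, beside 11.7% of all tested genes lower and 35.0% higher. The median log2 difference was -0.30, and -0.011 after quantile normalization. With that scaling 3 of the 8 were lower and 2 higher without overlap, beside 19.8% and 21.0% of all genes. The gene that fell was rpl17, with 504, 477 and 720 FPKM in WT siblings and 361, 361 and 356 in mutants. The mutant libraries were nearly equal in it, and it fell by 0.63 in log2 units (SE 0.160, adjusted p = 0.0470 from limma). It did not pass with a pseudocount of 0.1 or after median-of-ratios scaling. Differences of rpl39, rpl31, rpl19, rpl4, rpl35 and rpl23a ran from -0.61 to -0.28 and none passed. When WT sibling 3 was left out, rpl31 and rpl39 fell too (adjusted p = 0.0124 and 0.0137 from limma). In that fit 8.11% of all genes fell and 20.1% rose. The remaining tunnel gene was rpl26. Its protein sits at the tunnel's mouth. It had 1130, 1042 and 1525 FPKM in WT siblings and 1202, 1178 and 1241 in mutants. The mutants lay inside the range of the WT siblings, and the difference was -0.010 (SE 0.159, adjusted p = 0.969 from limma, interval at 95% from -0.38 to 0.36). Among rpl genes it ranked the fifth in WT siblings and the second in mutants by mean FPKM.

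The proteins of rpl5 and rpl11 bind the smallest ribosomal RNA before it joins the large subunit. None of these genes passed the test with all 6 libraries. The gene rpl11 had 270, 238 and 378 FPKM in WT siblings and 186, 209 and 182 in mutants, without overlap, and a difference of -0.59 (SE 0.172, adjusted p = 0.0645 from limma). When WT sibling 3 was left out, the rpl11 difference was -0.40 and passed (adjusted p = 0.0116 from limma), beside 8.11% of all genes lower. It also passed without WT sibling 2, beside 2.93%. Of the rpl5 pair, rpl5a had 1153, 1030 and 1264 FPKM in WT siblings and 978, 1102 and 1056 in mutants, and the groups overlapped. Its difference was -0.13 (SE 0.121, adjusted p = 0.447 from limma). The copy rpl5b had 635, 595 and 725 FPKM in WT siblings and 538, 585 and 582 in mutants, without overlap. Its difference was -0.19 (SE 0.110, adjusted p = 0.241 from limma). Both rpl5 differences were positive after quantile normalization.

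Apart from rpl7l1, rpl22l1 and the second rpl37 row, 25 further genes encode proteins of the outer surface, the subunit interface and the core. With all 6 libraries only rpl13 of these fell (4.0%, beside 3.98% of all tested genes). It had 795, 738 and 1017 FPKM in WT siblings and 563, 604 and 582 in mutants, and its difference was -0.53 (SE 0.137, adjusted p = 0.0493 from limma). When WT sibling 3 was left out, rpl9, rpl13a, rpl14, rpl23, rpl27, rpl36 and rpl37 fell besides rpl13, and rpl29 rose. In that fit 8.11% of all genes fell and 20.1% rose. In 16 of the 25 (64.0%) the groups did not overlap, always with the mutants lower, beside 11.7% of all tested genes lower and 35.0% higher. After quantile normalization 4 (16.0%) were lower and 1 higher without overlap, beside 19.8% and 21.0% of all genes. The median difference was -0.31, and -0.023 after quantile normalization. The most negative difference among the other 24 belonged to rpl34, with 133, 122 and 173 FPKM in WT siblings and 84.1, 119 and 88.2 in mutants (-0.55, limma adjusted p = 0.0772). The gene rpl32, the third most abundant in both groups, had 1132, 1105 and 1813 FPKM in WT siblings and 1077, 1131 and 1205 in mutants. It overlapped between groups, and its difference of -0.21 turned to 0.024 without WT sibling 3. For rpl7 the values were 850, 851 and 1279 FPKM in WT siblings and 862, 925 and 957 in mutants. Here WT siblings 1 and 2 lay below every mutant library, and the difference of -0.093 became 0.10 without WT sibling 3. The gene rpl35a had 124, 117 and 194 FPKM in WT siblings and 123, 128 and 167 in mutants (difference -0.035, adjusted p = 0.916 from limma).

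At the upper end stood rpl29 and rpl38. The rpl29 protein lies at the surface of the large subunit, and mice that lack it survive but are small. Its gene had 109, 97.5 and 164 FPKM in WT siblings and 119, 233 and 272 in mutants. Mutants 2 and 3 exceeded all WT siblings, while mutant 1 lay among them. The mean was higher by 68.7%, with the largest spread of any rpl gene among mutants (coefficient of variation 38.2%), and the log2 difference of 0.70 (SE 0.326) did not pass (adjusted p = 0.169 from limma, interval at 95% from -0.065 to 1.47). The sign was positive in every scaling tried, and leaving out 1 library gave 0.47 to 1.06. Without WT sibling 3 it was the rpl gene that rose. The rpl38 protein, which in mouse is needed for the translation of certain Hox messenger RNAs, had a gene level of 234, 199 and 332 FPKM in WT siblings and 233, 248 and 297 in mutants. The groups overlapped, and the difference of 0.047 (SE 0.194, adjusted p = 0.878 from limma) turned to -0.15 after median-of-ratios scaling.

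**Figure D4:**
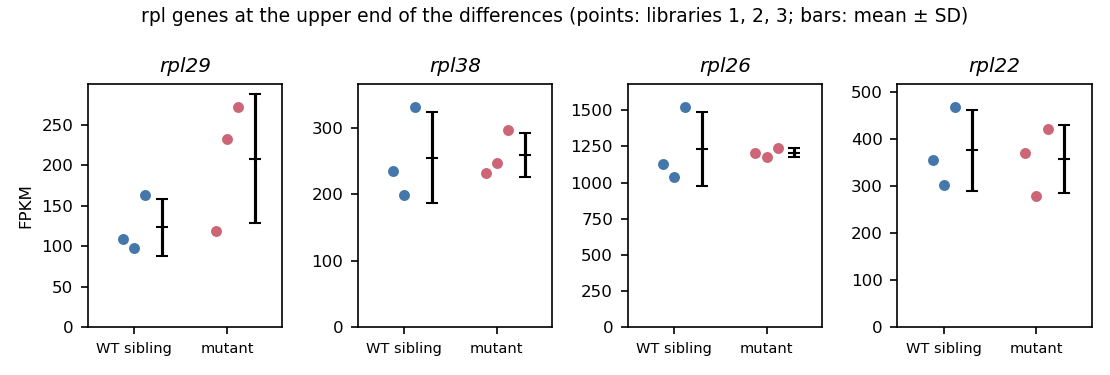
FPKM (y axes, from 0) of rpl29, rpl38, rpl26 and rpl22, with 1 point per library and the mean ± SD beside each group. In rpl29 mutants 2 and 3 (233 and 272 FPKM) lie above all WT siblings, and in the other genes the groups overlap.

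Whether a member departed from the shift that the rpl genes shared was asked by centring each library on its median rpl gene and refitting all genes, a step chosen after the values had been seen. Relative to the median rpl gene, rplp1 and rplp2 were lower and rpl29, rpl38 and rpl26 higher at an adjusted p under 0.05. On this scale 0.532% of all tested genes were lower and 32.1% higher. The adjustment runs over all tested genes, so this many genes called higher makes the threshold easier to pass for rpl genes too. The gene rplp1 differed by -0.60 (SE 0.146, adjusted p = 0.00812 from limma) and rpl29 by 1.14 (SE 0.204, adjusted p = 0.000787 from limma). Both passed in 6 of 6 fits that left out 1 library, with adjusted p up to 0.0479 for rplp1 and up to 0.0212 for rpl29 (limma). The gene rplp2 differed by -0.50 (adjusted p = 0.0253 from limma) and passed in 3 of the 6, rpl38 by 0.49 (adjusted p = 0.0315) in 3 and rpl26 by 0.43 (adjusted p = 0.0250) in 3. Without WT sibling 3 the count was 4 lower and 8 higher, beside 1.39% of all genes lower and 31.3% higher. Without mutant 1, where 0.168% of all genes were lower and 1.16% higher, only rplp1 and rpl29 of the rpl genes passed.

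Paralog pairs were compared within each library by the log2 ratio of their FPKM + 1, for 4 pairs, with an exact permutation test in both directions whose smallest p is 0.1. The gene rpl22l1 encodes a close relative of the rpl22 protein, and in mouse Rpl22 restrains the messenger RNA of Rpl22l1. It had 248, 208 and 326 FPKM in WT siblings and 163, 170 and 164 in mutants and fell by 0.62 in log2 units (SE 0.158, adjusted p = 0.0469 from limma). The gene rpl22 itself had 355, 302 and 468 FPKM in WT siblings and 370, 279 and 421 in mutants, with a difference of -0.070 (SE 0.204, adjusted p = 0.826 from limma). The ratio of rpl22l1 to rpl22 was 0.697, 0.688 and 0.695 in WT siblings, where WT sibling 3 did not stand apart, and 0.441, 0.610 and 0.389 in mutants. All mutants lay below all WT siblings, by 0.56 on the log2 scale, with an exact p of 0.1 and 0.2 after adjustment over the 4 pairs. For rpl5b to rpl5a the ratio was 0.567 ± 0.0141 in WT siblings against 0.544 ± 0.0114 in mutants (SD, n = 3 each, exact permutation p = 0.1, adjusted 0.2). For rplp2l to rplp2 the ratio was 3.07 ± 0.487 and 3.75 ± 0.428, with overlap (exact permutation p = 0.2, adjusted 0.267). The relative of rpl7, rpl7l1, had 19.5 to 25.6 FPKM over all libraries, and its ratio to rpl7 was 0.0237 ± 0.00409 in WT siblings against 0.0229 ± 0.00343 in mutants (SD, n = 3 each, exact permutation p = 0.9). Reads of near-identical copies can be shared, so the split within a pair is uncertain.

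The genes of the small subunit moved in the same direction. Of 33 tested rps genes 9 fell (27.3%) and 0 rose, beside 3.98% and 8.23% of all tested genes, with a median difference of -0.43. In 23 (69.7%) every mutant library lay below every WT sibling library and in 0 above, beside 11.7% and 35.0% of all genes. After quantile normalization these numbers were 12 (36.4%) and 2, beside 19.8% and 21.0% of all genes. Without WT sibling 3, 19 rps genes fell, beside 8.11% of all genes. Without WT sibling 1 or any 1 mutant 0 rps genes fell, in fits where 0.412% to 0.879% of all genes did. The share of rps genes in the summed FPKM went from 5.89% ± 0.732 (SD, n = 3) in WT siblings to 4.47% ± 0.185 (SD, n = 3) in mutants. The ratio of summed rpl to summed rps FPKM was 1.12, 1.15 and 1.14 in WT siblings and 1.23, 1.23 and 1.25 in mutants. It was higher in every mutant than in every WT sibling, and WT sibling 3 lay between the other WT siblings. The difference between the medians of the 2 sets within a library, -0.43 ± 0.0776 in WT siblings and -0.35 ± 0.152 in mutants, overlapped between the groups. The median excess of WT sibling 3 over WT siblings 1 and 2 was 0.51 on the log2 scale in rps genes, 0.47 in rpl genes and 0.43 in the 73 genes of mitochondrial ribosomal proteins, while over all tested genes its median difference from them was -0.12. Of the mitochondrial ribosomal protein genes 8 fell and 1 rose, with a median of -0.061 (11 and 15 without WT sibling 3), and their share of FPKM was 0.446% ± 0.0489 and 0.448% ± 0.0208.

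**Figure D5:**
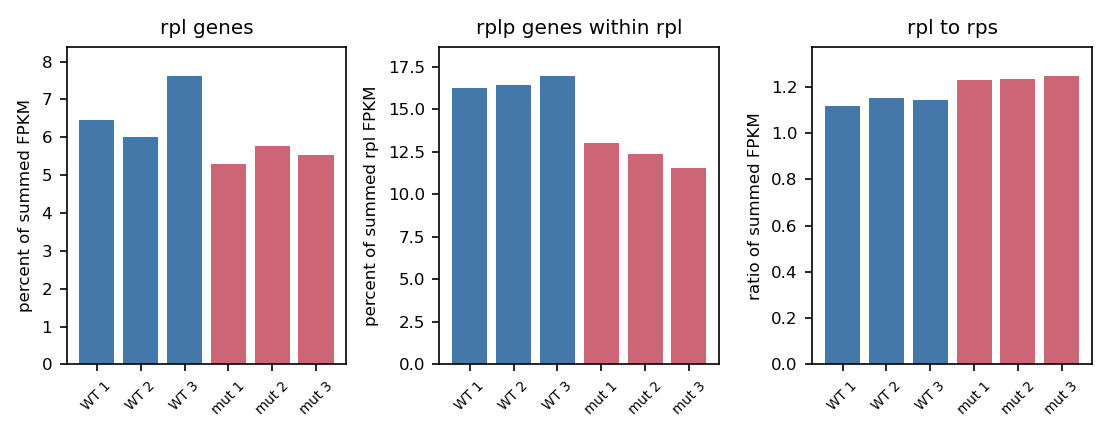
Bars (from 0) for each library show the percent of summed FPKM taken by rpl genes, the percent of rpl FPKM taken by the 4 rplp genes and the ratio of summed rpl to summed rps FPKM. Mutants lie below WT siblings in the first and second panels (5.30 to 5.76% against 6.01 to 7.62%, and 11.5 to 13.0% against 16.2 to 17.0%) and above them in the third (1.23 to 1.25 against 1.12 to 1.15).

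Other genes of ribosome production were read from lists fixed with earlier results of these libraries known. Over all tested genes 3.98% fell and 8.23% rose, and without WT sibling 3 these shares were 8.11% and 20.1%. Of 56 genes for assembly factors 2 fell (3.6%, near the share of all genes) and 1 rose, with a median of 0.091 (4 and 11 without WT sibling 3). The genes that fell were gar1, for a protein that guides the modification of ribosomal RNA (-0.58, SE 0.0933, adjusted p = 0.0157 from limma), and nmd3, for the export adaptor of the large subunit (-0.46, SE 0.108, adjusted p = 0.0407 from limma). The gene that rose was nol6, for a nucleolar protein (0.47, SE 0.109, adjusted p = 0.0389 from limma), which missed the threshold under median-of-ratios and quantile scaling. Of 12 genes for the transcription of ribosomal RNA 0 passed (3 rose without WT sibling 3), with the smallest unadjusted p from limma at 0.0217 for ubtf. Of 77 genes for elongation and initiation factors 5 fell (6.5%) and 4 rose, with a median of 0.032 (12 and 12 without WT sibling 3). Of 28 other genes with TOP messenger RNAs 5 fell (17.9%) and 1 rose, with a median of -0.090 (9 and 2 without WT sibling 3). They included btf3, for a subunit of the complex that binds new protein chains at the tunnel exit (-0.63, SE 0.107, adjusted p = 0.0180 from limma), and gnb2l1, for the small subunit scaffold known as Rack1 (-0.64, SE 0.134, adjusted p = 0.0295 from limma, not passing under quantile normalization). The list of other TOP genes shares members with the factor list, among them eif3k, which fell, and eef2a.1, which rose, so their counts overlap. After median-of-ratios scaling eef2a.1 did not pass. Of 17 genes that regulate TOP translation 2 fell (11.8%) and 0 rose (2 and 3 without WT sibling 3). Their median was 0.28, beside 0.16 for all tested genes, and both medians were 0.11 without WT sibling 3. In 3 of the 17 every mutant library lay below every WT sibling library and in 8 above, beside 11.7% and 35.0% of all genes. Those that fell were rheb, for the GTPase that activates mTOR (-0.45, SE 0.0898, adjusted p = 0.0251 from limma), and akt1s1, for an inhibitor of the mTOR complex (-0.32, SE 0.0733, adjusted p = 0.0366 from limma, not passing under quantile normalization).

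Markers of several cell types moved with the groups, and the median log2 difference was larger for genes of longer span. Over all tested genes 3.98% fell and 8.23% rose. Of 4 red cell markers 4 fell, and their summed FPKM was 1489 to 2119 in WT siblings and 334 to 422 in mutants. Of 5 liver and yolk markers 2 fell (2783 to 3167 and 1775 to 2020 FPKM), and of 6 leukocyte markers 3 fell (129 to 175 and 77.0 to 96.7 FPKM). Most of the leukocyte sum was lyz (mean 124 FPKM in WT siblings and 66.3 in mutants). The 6 leukocyte log2 differences ran from -0.89 (lyz) to 0.20 (ptprc, limma adjusted p = 0.254). Of 12 markers of cycling cells 0 fell and 1, mki67, rose, with summed FPKM of 698 to 733 and 645 to 710. Of 7 neuron markers sncb fell and elavl3 rose (609 to 629 and 581 to 606 FPKM), of 8 muscle markers 0 passed (18349 to 21564 and 15374 to 17914 FPKM), and of 4 lens markers 0 fell and cryaa rose (745 to 982 and 685 to 743 FPKM). Without WT sibling 3, 4 muscle markers, 3 liver and yolk markers and 1 marker of cycling cells (mcm7) fell, and the other marker counts were the same. In that fit 8.11% of all genes fell and 20.1% rose. With all 6 libraries, elavl3 and cryaa did not pass under median-of-ratios scaling, nor did sncb under quantile normalization. No marker of these lists was at 0 in all libraries. The rpl genes have short spans. Of 46 with a span in an annotation of another assembly, 39 lay in the shortest of 4 equal bins of genes, whose median log2 difference was 0.013, and 7 in the next, whose median was 0.11, against 0.28 in the longest bin. Without WT sibling 3 these medians were 0.060, 0.087 and 0.16. Genes of the mitochondrial genome took 2.68% to 3.61% of FPKM in WT siblings and 4.82% to 6.48% in mutants. Without these genes the rpl share was 6.92% ± 0.887 against 5.85% ± 0.261 (SD, n = 3 each), still without overlap between the groups. The part of cell makeup and gene span in the rpl differences was not tested.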

How the data were processed

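Whole larvae were sequenced in 6 libraries. The authors trimmed the reads, aligned them to GRCz11 with HISAT2, estimated transcripts with StringTie and took gene FPKM from Ballgown. The deposited values are FPKM for 19071 genes, with the unit in the header of 4 tables and blank in 2. Tool versions in the submitters' notes are StringTie 1.3.3, HISAT2 2.1.0, cutadapt 1.17 and FastQC 0.11.7. These notes also list a human assembly, GRCh37, although all gene IDs are zebrafish ones. Strand and filter settings are not given in the sources used here. Depth is unknown, so counting error could not be stated.

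Values of log2(FPKM + 1) were fitted with limma 3.58.1 in R 4.3.3 (eBayes with trend, no covariate) for the 18432 genes with a mean of at least 0.5 FPKM, with Benjamini-Hochberg adjustment over all of them. The fit was checked on simulated data. This scale understates changes of genes with low FPKM. Named genes were those called, the 6 most positive and 6 most negative differences, the 5 highest and 5 lowest levels, rplp genes, rpl5a, rpl5b, rpl11, the paralog pairs and up to 4 members of each other list. Genes named beside these by their place in the ribosome (rpl3, rpl8, rpl12, rpl34, rpl39 and others) were chosen after their values were seen. The genes, lists and tests were chosen with earlier results of these data known, and the grouping of rpl genes by place in the ribosome and the centring on the median rpl gene after their values had been seen. Rows for kinases and a binding protein whose names start with rps were left out of the rps list. Gene names were checked against a table of gene IDs, which held all 47, and spans were taken from RefSeq's GRCz12tu for 80.7% of genes, and no sequences were used. The result of 1 further gene list is not reported here. Alternatives were other pseudocounts (0.1 and 0.5), no filter or a filter at 1 FPKM, TPM, median-of-ratios and quantile scaling, a replicate block, ordinary linear models with and without a library covariate, the study's criteria applied to limma's values and leaving out each library.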

Additional observations from a re-analysis of the deposited data

How the results depend on the processing

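The number of rpl genes that fell, 7, was 4 with a pseudocount of 0.1, 4 after median-of-ratios scaling, 0 with an ordinary linear model, 0 with a library covariate in it (where 0 of all 18432 genes passed in either direction) and 11 by the study's criteria applied to limma's values. It ranged from 0 to 20 when 1 library was left out, and the number that rose from 0 to 1. With the replicate number as a block it was 2 (rplp1 and rpl10), beside 2.19% of all genes lower and 3.65% higher. The deviations of same-numbered libraries from their group means correlated at 0.016, 0.072 and 0.14 across genes. Those of differently numbered libraries correlated at -0.13 to 0.11. With 3 libraries per group these values cannot decide whether the numbers pair the libraries. Over all tested genes 733 fell and 1517 rose, 1050 and 668 after median-of-ratios scaling and 1310 and 980 after quantile normalization. The median of all genes was then 0.012 and 0.0056, and 0.28 after rescaling to TPM. The rpl median relative to all genes was -0.51, -0.55 after median-of-ratios scaling, -0.52 after rescaling to TPM and -0.12 after quantile normalization. With the library covariate it was -0.049, and the rpl median not taken relative to all genes was -0.023. The group difference in the rpl to rps comparison was 0.099 as a ratio of sums and 0.079 as a difference of median log2 values. The rpl7l1 to rpl7 difference of -0.039 ranged from -0.16 to 0.090 without single libraries. Of 352 values for the 22 named rpl genes, 34 changed sign, all in genes that did not pass. After quantile normalization rpl32 was 0.042, rpl5b 0.10, rpl5a 0.18, rpl7 0.25, rpl22 0.22, rpl35a 0.11 and rpl26 0.28. With the library covariate rpl32 was 0.32, rpl5b 0.013, rpl5a 0.069, rpl7l1 0.048, rpl7 0.35, rpl22 0.33, the second rpl37 row 0.32, rpl35a 0.51 and rpl26 0.37. After rescaling to TPM rpl7 was 0.013, rpl22 0.036, the second rpl37 row 0.019, rpl35a 0.070 and rpl26 0.095. The gene rpl38 was -0.15 after median-of-ratios scaling. Without single libraries rpl32 ranged from -0.33 to 0.024, rpl7 from -0.19 to 0.10, rpl22 from -0.21 to 0.10, the second rpl37 row from -0.21 to 0.14, rpl35a from -0.17 to 0.19, rpl26 from -0.12 to 0.15 and rpl38 from -0.11 to 0.25. The causes were not tested.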

Other observations

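A pair of listed rows outside the rule also belong to the large subunit by name or ID. RPL41, listed in capitals, encodes the smallest ribosomal protein and had 1649, 1432 and 2353 FPKM in WT siblings and 946, 1226 and 1258 in mutants. The groups did not overlap, and the log2 difference of -0.64 (SE 0.212, adjusted p = 0.0838 from limma) did not pass. ENSDARG00000009285, listed as ube2e1 and named RPL15 in a table of gene IDs, had 174, 214 and 318 FPKM in WT siblings and 162, 202 and 201 in mutants (difference -0.28, SE 0.216, adjusted p = 0.377 from limma). In both rows WT sibling 3 was the highest library, as in 46 of the 47 rpl genes.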
